A study of Mus musculus with 4 samples.

Results

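The mitochondrial respiratory chain was examined through 52 listed nuclear genes that encode subunits of complexes I to IV, in LSK cells (Lin-Sca-1+c-Kit+), which are a sorted bone marrow fraction that holds the blood-forming stem cells and the earliest progenitors. The members were chosen by name, and each was followed through the Affymetrix probe set of highest mean log2 signal whose platform annotation gives that gene symbol alone. Of the 52 genes, 49 had such a probe set and 47 passed a filter on low signals, out of 12680 genes that passed among 18194 on the array. The study used C57BL/6 mice whose blood system had been rebuilt from fetal liver cells of either necdin null (2 arrays) or wild type (2 arrays) genotype. The mice of both groups had received a sublethal irradiation of 6.5 Gy, so the arrays show no unirradiated state. The sources used here do not give the time from irradiation to cell collection, the share of host cells left or whether RNA was pooled. The labels do not say whether the 2 arrays of a group are separate animals, so p-values measure only how far these arrays spread, possibly for technical reasons, and precision is limited by their number.

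The respiratory chain passes electrons from NADH and succinate to oxygen. Complex I takes them from NADH and complex II from succinate, complex III passes them to cytochrome c, and complex IV reduces oxygen to water, while complexes I, III and IV pump protons that drive ATP synthase. Most subunits are nuclear genes, whose promoters are known targets of the factors NRF1, GABP (an ETS factor) and YY1. Quiescent haematopoietic stem cells are known to rely more on glycolysis, and oxidative phosphorylation rises as they are activated and differentiate.

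The gene targeted in the study, Ndn, was low in necdin null cells. Its probe set of highest mean log2 signal read 55.4 and 105 in null cells (replicates 1 and 2) and 253 and 255 in wild type ones, and the next brightest read 2.73 and 12.1 against 559 and 392. Kit, which encodes the c-Kit of the sorting gate, had signals of 6049 and 3744 in null cells and 6617 and 3976 in wild type ones, whereas Ly6a (Sca-1) was not analysed here. Of the T and NK markers with a signal, 4 of 6 (Cd3e, Cd3d, Cd3g and Cd4) did not pass the filter, while Nkg7 read 3047 to 4045 and Cd8a also passed. Of the B lineage markers 5 of 6 passed, the highest being Cd79b at 694 to 1231, and Cd79a, at most 68.7, did not. Neutrophil markers, of which 9 of 10 were measured and passed it, summed to 53191 and 139052 in null cells and 32588 and 94729 in wild type ones, higher on both replicate 2 arrays. Necdin null replicate 2 stood apart from the other arrays before any comparison of genotypes. Its top 1% of probe sets by signal took up 37.4% of the array's total, against 28.9% to 30.6% elsewhere. Its Gapdh 3' to 5' ratio, a sign of RNA integrity, was 15.8 against 9.96 to 11.7. For Actb the ratio was 14.5 against 9.21 to 12.4, the 12.4 being that of wild type replicate 2. In these bulk samples, fewer cells of a type and less RNA per cell cannot be told apart.

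No respiratory chain gene passed the test between necdin null and wild type cells. With limma across all 12680 genes, 0 of 47 members passed an adjusted p of 0.05 (lowest adjusted p 0.999), where 0.0% of all genes passed, and 0 of 47 had an unadjusted p under 0.05, where 3.02% of all genes had one. The 47 differences were small, between -0.43 and 0.40 on the log2 scale, with standard errors of 0.18 to 0.32. For 35 of the 47 the difference was smaller than its own standard error. The 95% confidence interval of limma excluded a 2-fold change in either direction for 46 of the 47, the exception being Ndufa13 (-0.32 to 1.12), and it included 0 for all 47. With the replicate number as a block, 0 of 47 members passed (0.0237% of all genes) and 0 of 47 had an unadjusted p under 0.05 (5.32% of all genes), and after quantile normalization none of the 47 had one either (3.14% of all genes). With both together 1 member, Cox6c, had one, with a negative difference (5.21% of all genes). Without necdin null replicate 1, where replicate 2 alone stood for the genotype, 15 members had an unadjusted p under 0.05 (7.41% of all genes) and 0 passed (0.0236% of all genes; lowest limma adjusted p 0.10).

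The differences leaned upward as deposited. Of the 47 members, 38 were above 0, beside 45.9% of all genes, and the median was 0.15, beside -0.03 over all genes. All signals of a member were higher in necdin null than in wild type cells for 10 members, beside 12.8% of all genes, and lower for 2, beside 17.7% of all genes. After quantile normalization, which gives all 4 arrays the same distribution of signals, the median was 0.04, 30 members were above 0 (46.0% of all genes), and the groups were apart for 6 members upward and 2 downward, beside 12.8% and 17.8% of all genes. Median centring of the arrays left 2 members apart upward, beside 7.42% of all genes, and 2 downward, beside 23.2% of all genes. Without necdin null replicate 2 the median was 0.04.

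**Figure D1:**
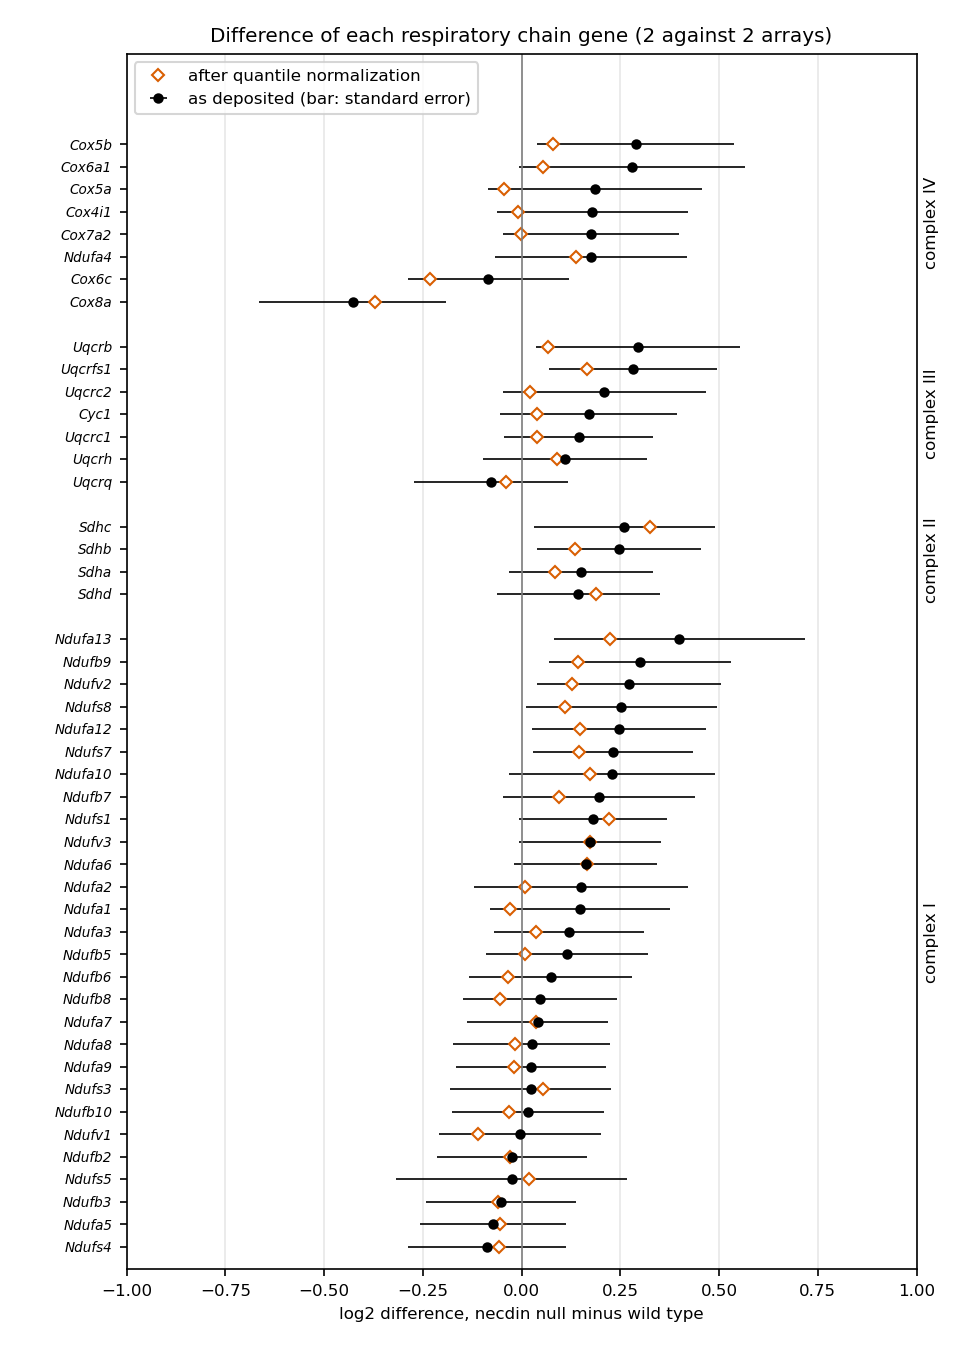
Each row is 1 of the 47 respiratory chain genes, grouped by complex; black points are log2 differences, necdin null minus wild type, as deposited, with the standard error of limma as bars, and open diamonds are the same after quantile normalization. Most points lie between -0.1 and 0.3, and the diamonds of most complex III and IV genes lie nearer 0 than the points.

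What the members share beyond their complexes was looked for in their promoters. RefSeq windows of GRCm38.p6, from 250 bases before to 50 bases after a gene's start, were found for 42 of the 52 genes (44 windows). The letters GCGCATG, the core of the NRF1 site, stood on either strand in 9 of 44 member windows, or 20.5%, and in 3.91% of all 32851 windows. The ETS letters CCGGAAG stood in 20.5% of member windows and 8.86% of all, and the YY1 letters AAGATGG in 15.9% and 6.34%. CCAAT (31.8% and 37.4%) and TATAAA (11.4% and 13.6%) were not more frequent among the members. Member windows were richer in G and C (median 59.2% against 52.7%). Windows of mitochondrial and of cytosolic ribosomal protein genes held the NRF1 letters in 8 of 73 and 9 of 67. They held the ETS letters in 32.9% and 35.8%, and the YY1 letters in 17.8% and 17.9%. The ETS letters were thus more frequent there than among the members, and the YY1 letters about as frequent. These shares were not tested against each other. A match is a description of letters and shows no binding.

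The stretches just before the start of 4 genes of complexes I, II and IV are shown because they hold these letters and the genes are described below. Each runs 5' to 3' along the gene, ends at the last base before the start and has the NRF1 and ETS letters, on either strand, in capitals.
Ndufa6 (GRCm38.p6, chr15:82354292-82354401, minus strand): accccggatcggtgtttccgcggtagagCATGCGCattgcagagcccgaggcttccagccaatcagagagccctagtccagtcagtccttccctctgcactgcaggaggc
Sdhb (GRCm38.p6, chr4:140961161-140961270, plus strand): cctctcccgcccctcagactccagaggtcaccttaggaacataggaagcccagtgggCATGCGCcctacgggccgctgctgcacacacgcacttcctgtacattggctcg
Cox5b (GRCm38.p6, chr1:36691377-36691486, plus strand): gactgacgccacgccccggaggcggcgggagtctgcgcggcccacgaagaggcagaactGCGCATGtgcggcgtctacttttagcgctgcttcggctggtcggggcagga
Cox6a1 (GRCm38.p6, chr5:115348959-115349128, minus strand): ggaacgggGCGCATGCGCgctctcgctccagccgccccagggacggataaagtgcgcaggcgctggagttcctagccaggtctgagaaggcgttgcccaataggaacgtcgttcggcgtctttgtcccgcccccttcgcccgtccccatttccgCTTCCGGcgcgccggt
The NRF1 letters lie 82 to 76 bases before the start of Ndufa6, 53 to 47 before that of Sdhb and 51 to 45 before that of Cox5b. In Cox6a1 they occur on both strands as overlapping copies between 162 and 153 bases before the start, and the ETS letters lie 16 to 10 bases before it.

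Complex I was represented by 28 genes, 6 core (catalytic) subunits and 22 accessory subunits. The median difference was 0.12 over the 28 genes and 0.03 after quantile normalization, with 22 above 0 as deposited and 17 after it. Among the core subunits, Ndufs1, the largest iron-sulphur subunit, had signals of 2078 and 2169.7 in null cells against 1979 and 1772 in wild type ones (0.18 on the log2 scale, standard error 0.19). Its groups did not overlap, and did not after quantile normalization either (0.22). Ndufs8, an iron-sulphur subunit of the ubiquinone-reducing arm, had 12749 and 19063 against 13387 and 12787 (0.25, standard error 0.24). Here necdin null replicate 2 alone was high, and 4 of the 6 probe sets of the gene pointed the same way. Ndufv1, which binds the flavin that receives electrons from NADH, had 12711 and 14126 against 14401 and 12541 (-0.0042, standard error 0.20), so its groups overlapped fully. Its partner Ndufv2 had 12241 and 17452 against 11552 and 12676 (0.27, standard error 0.23), again with only necdin null replicate 2 set apart. The other core subunits, Ndufs3 and Ndufs7, had differences of 0.02 and 0.23 with overlapping groups.

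The 22 accessory subunits, which surround and stabilise the core, had a median difference of 0.09 and, after quantile normalization, 0.0090. Their groups were apart upward for 4 of the 22 genes, beside 12.8% of all genes, and downward for 0, beside 17.7% of all genes. Ndufb9, of the membrane arm, had 17077 and 23118 in null cells against 15618 and 16697 in wild type ones (0.30, standard error 0.23). Ndufa6 had 3770.1 and 3416 against 3135 and 3281 (0.16, standard error 0.18), and Ndufv3 had 3441 and 3764 against 3088 and 3295 (0.17, standard error 0.18). These 3 genes stayed apart after quantile normalization, at 0.14, 0.17 and 0.17, whereas Ndufa3 did not. The signals of Ndufa3 were 9871 and 9363 against 9323 and 8404 (0.12, standard error 0.19), a gap between groups that was smaller than the gap within wild type cells.

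The largest upward difference among the 47 members was that of Ndufa13, also known as GRIM-19, an accessory subunit that is named here after its values were seen. It had 11249 and 23217 in null cells against 12340.1 and 12169.9 in wild type ones (0.40, standard error 0.32). Only necdin null replicate 2 was high, and necdin null replicate 1 was the lowest of the 4 arrays. Ndufa1, the accessory gene with the highest signal, had 18915 and 24562 against 19028 and 19898 (0.15, standard error 0.23), and its difference turned to -0.03 after quantile normalization and -0.04 without necdin null replicate 2. Ndufs5, with the lowest signal of the complex, had 803 and 555 against 567 and 814 (-0.03, standard error 0.29), so each group held a high and a low array. The probe set with the symbol of Ndufb4 alone did not pass the filter, at a signal of at most 54.0.

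Complex II, succinate dehydrogenase, links the citric acid cycle to the chain and has no mitochondrially encoded subunit. All 4 of its genes were above 0, with a median of 0.20, and the median was 0.16 after quantile normalization and 0.18 without necdin null replicate 2. Sdha, the flavoprotein that oxidises succinate, had 8196 and 8024 in null cells against 7511 and 7107 in wild type ones (0.15, standard error 0.18), with the groups apart. Its groups overlapped after quantile normalization (0.08). Of its 3 probe sets past the filter 2 pointed upward, and the mean of the 3 gave -0.0019. Sdhb, the iron-sulphur subunit, had 9312 and 11632 against 8151 and 9431 (0.25, standard error 0.21), with wild type replicate 2 above necdin null replicate 1.

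The membrane anchors Sdhc and Sdhd were low on wild type replicate 2 rather than high on a necdin null array. Sdhc had 1506 and 1487 in null cells against 1498 and 1041 in wild type ones (0.26, standard error 0.23). Its second probe set went the other way, at 853 and 570.0 against 864 and 662. Sdhd had 1721 and 1590.4 against 1679.9 and 1335 (0.14, standard error 0.21), and 1 of its 2 probe sets pointed upward. Without wild type replicate 2 the median of complex II was 0.05 and that of Sdhc alone -0.0014. After quantile normalization both genes had groups apart upward, at 0.32 and 0.19, as had 12.8% of all genes.

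Complex III was represented by 7 genes with a median of 0.17, which was 0.04 after quantile normalization and 0.04 without necdin null replicate 2. Uqcrfs1, the Rieske iron-sulphur protein, had 12191 and 13248 in null cells against 11885 and 9182 in wild type ones (0.28, standard error 0.21). Of the members above 0 it had the smallest p (limma adjusted p = 0.999), with wild type replicate 2 low and the other arrays within 11885 and 13248. The groups overlapped after quantile normalization (0.17). Uqcrc1, a core subunit of the matrix side, had 11162 and 10928 against 10189 and 9799.9 (0.14, standard error 0.19), with groups apart as deposited and not after quantile normalization (0.04). Uqcrb, the gene with the highest mean signal of the complex, had 30102 and 42751 against 28407 and 30081 (0.30, standard error 0.26). Its necdin null replicate 1 and wild type replicate 2 were nearly equal, and necdin null replicate 2 alone was high. Uqcrc2 and the cytochrome c1 gene Cyc1 had differences of 0.21 and 0.17 with necdin null replicate 2 the highest array of each, and Uqcrh had 0.11. Uqcrq, with the lowest signal, had 1618 and 1462 against 1548 and 1701 (-0.08, standard error 0.19) and was the sole complex III gene below 0.

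Complex IV, cytochrome c oxidase, was represented by 8 genes, among them Ndufa4, which carries a complex I name and is known as a complex IV subunit. Their median was 0.18 as deposited, -0.0052 after quantile normalization and -0.08 without necdin null replicate 2. Cox5b, a zinc-binding subunit, had 23709.7 and 33837 in null cells against 23344 and 23025 in wild type ones (0.29, standard error 0.25). Its groups were apart as deposited and overlapped after quantile normalization (0.08). Cox5a had 24138 and 36308 against 23611 and 28709 (0.19, standard error 0.27), and its difference was -0.04 after quantile normalization and -0.11 without necdin null replicate 2. Cox6a1, named here after its values were seen, had 21699 and 36528 against 21697 and 24826 (0.28, standard error 0.29), with replicate 1 of both genotypes nearly equal.

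The members with groups apart downward both belonged to complex IV. Cox8a, the ubiquitous isoform of subunit VIII, had 631 and 645 in null cells against 771 and 959 in wild type ones (-0.43, standard error 0.24) and the smallest p of all members (limma adjusted p = 0.999). It stayed apart after quantile normalization (-0.37). Another Cox8a probe set pointed upward, with 664 and 532 against 550.1 and 464 (0.23), so the direction depended on the probe set. Cox6c had 16021 and 16614 against 17788 and 16811 (-0.08, standard error 0.20), and its second probe set was at 0.08. After quantile normalization its difference was -0.23, with a standard error of 0.13, and its groups overlapped. Ndufa4 had 6075 and 5953 against 6779 and 4181 (0.18, standard error 0.24), with the wild type arrays on either side of both necdin null arrays. The main probe set of Cox7c did not pass the filter, with signals of 2.24 to 62.9, which does not show that the gene is little expressed.

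**Figure D2:**
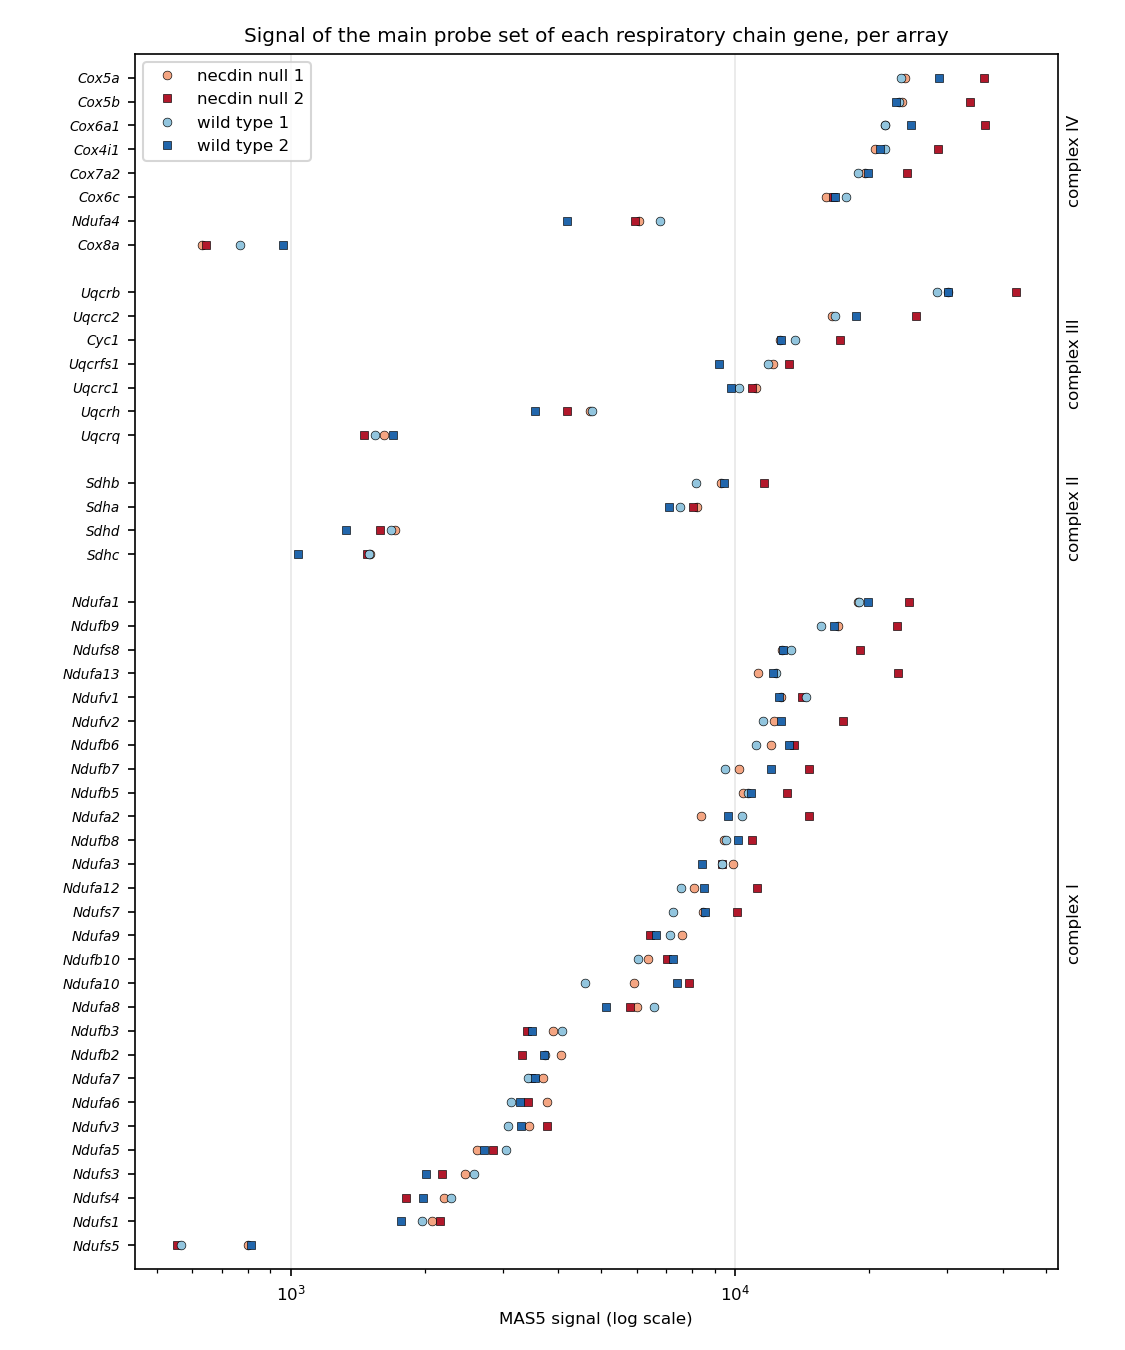
Each row is 1 of the 47 respiratory chain genes, grouped by complex and ordered by mean signal; the points are the deposited MAS5 signals of its main probe set on the 4 arrays, on a log axis. Necdin null replicate 2 (dark red squares) is the highest array for 25 of the 47 genes, mostly those of signal over 10000, and wild type replicate 2 is the lowest for Sdhc, Sdhd, Uqcrfs1 and Ndufa4, among others.

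Signals of different probe sets do not order transcripts, since probe sets differ in how they hybridise, and so the complexes are compared array by array. The median signal over the 47 members came to 8454 and 10897 for null cells and to 8151 and 8556 for wild type ones. For complex IV it was 20148 and 26517 against 20288 and 20535, for complex III 12191 and 13248 against 11885 and 9799.9, for complex I 7827 and 8625 against 7186 and 7897, and for complex II 4958 and 4807 against 4595 and 4221. Necdin null replicate 1 thus lay between the wild type arrays for complex I, below both for complex IV, and above both for complexes II and III. Relative to each gene's mean over the 4 arrays, the median deviation of the members on necdin null replicate 2 was 0.12 for complex I, 0.09 for complex II, 0.20 for complex III and 0.28 for complex IV. On necdin null replicate 1 it was -0.06, 0.11, 0.03 and -0.13. As deposited, both necdin null arrays were above both wild type arrays by this measure for complexes II and III. After quantile normalization this was so for complex II and for complex I (0.03 and 0.0058 against -0.03 and -0.03), and no longer for complex III. The difference between complexes was not tested.

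**Figure D3:**
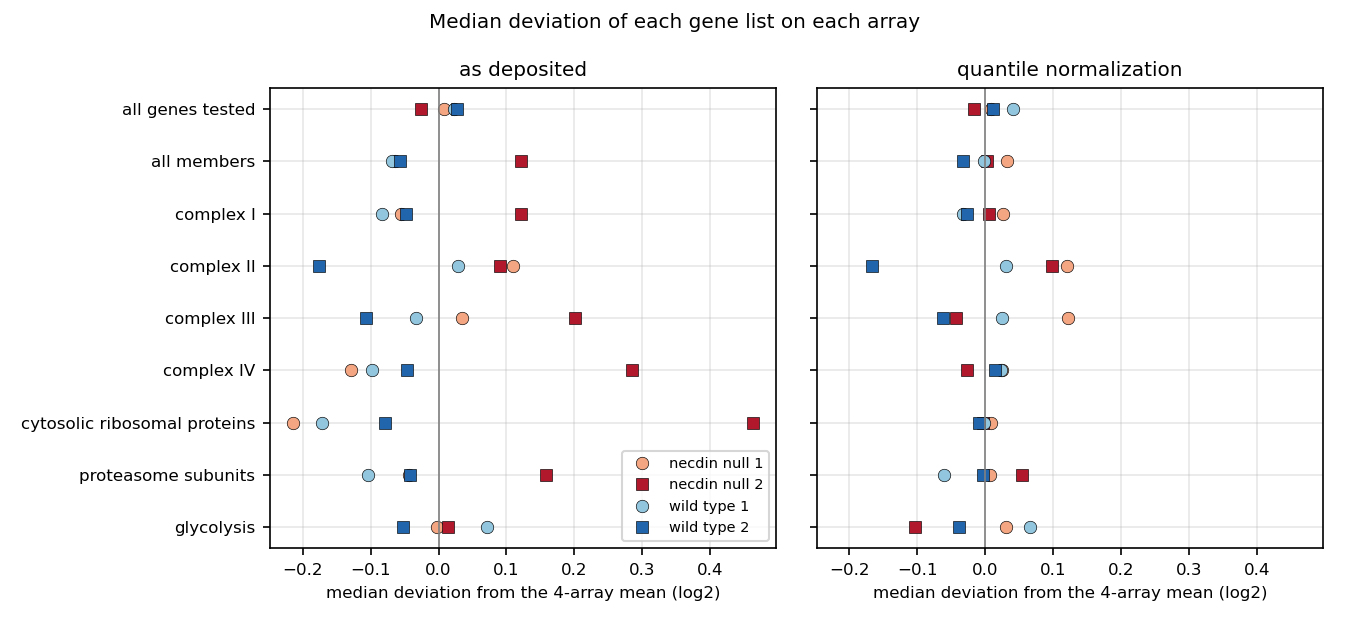
For each gene list (rows), the points give the median log2 deviation from the 4-array mean on each of the 4 arrays, as deposited (left) and after quantile normalization (right). As deposited, necdin null replicate 2 reaches 0.28 for complex IV and 0.46 for cytosolic ribosomal proteins; on the right it lies at -0.03 and -0.0027, while complex II keeps wild type replicate 2 low at -0.17.

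The excess on necdin null replicate 2 followed the signal of the probe set. Of the 21 members with a mean log2 signal above that of 10000, 18 had their highest signal on that array, and their median deviation there was 0.36. Over all 468 genes tested in that range, 87.2% had their highest signal on it, with a median deviation of 0.29. Of the 17 members between 3000 and 10000, 6 were highest there, beside 38.2% of all genes in that range, and of the 9 members under 3000, 1 was, beside 20.8% of all genes. The median difference between genotypes was 0.19, 0.12 and -0.03 in these 3 classes of members, beside 0.17, 0.03 and -0.06 for all genes of the same range. After quantile normalization the members' medians were 0.04, 0.08 and 0.02, beside -5.7e-05, -0.00099 and -0.04 for all genes of the same range. Of the 21 members over 10000, 10 were then still highest on necdin null replicate 2, beside 23.5% of all genes in that range. Between 3000 and 10000 the shares were 23.5% of members and 27.3% of all genes, and under 3000 they were 22.2% and 24.3%. The members were not tested against all genes.

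**Figure D4:**
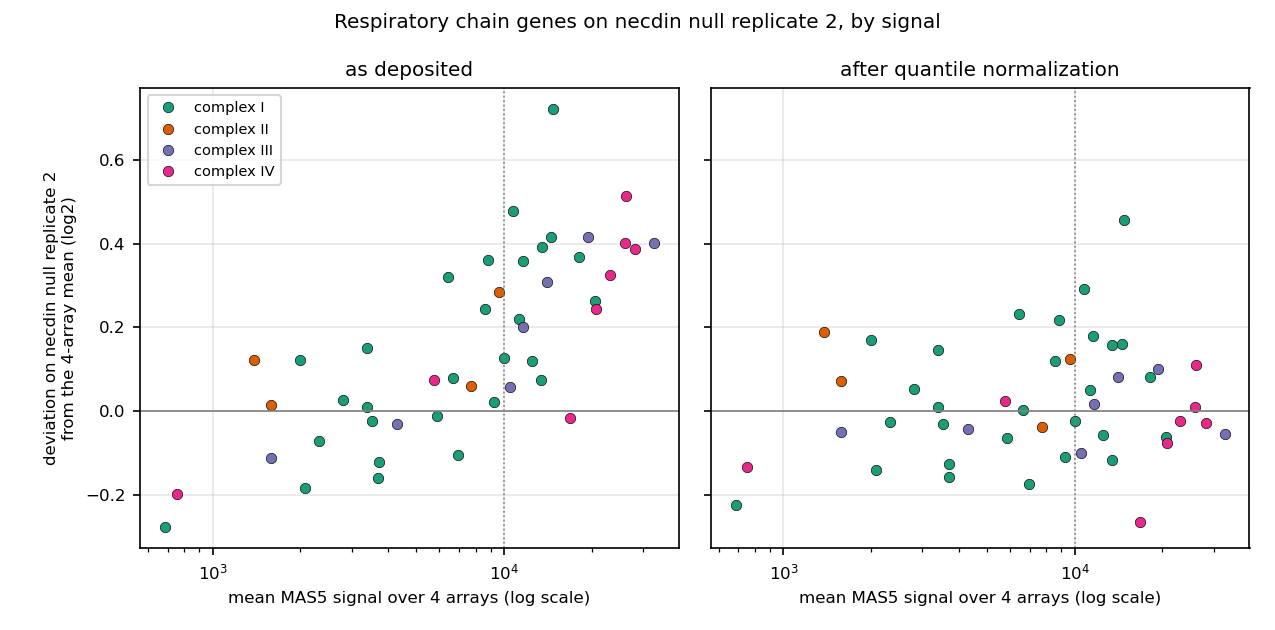
Each point is 1 of the 47 respiratory chain genes, coloured by complex; the x axis is its mean MAS5 signal (log axis, dotted line at 10000) and the y axis its log2 deviation on necdin null replicate 2 from the mean of the 4 arrays. As deposited (left) the deviation is larger at higher signal, with a median of 0.36 for members over 10000; after quantile normalization (right) that median is 0.02.

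The same was seen within genes. For 12 members with a main probe set over 10000 and another above the filter but under 10000, the deviation on necdin null replicate 2 was larger for the main probe set in 11, the exception being Cox6c. Its median was 0.36 for the main and 0.05 for the dimmer probe sets, and the median difference between genotypes was 0.22 and 0.02. For Uqcrb the main probe set differed by 0.30 and the dimmer one by 0.02, the latter with 2881 and 1816 in null cells against 2219 and 2286 in wild type ones. For Cox6a1 the values were 0.28 and -0.15. Of the 29 members with more than 1 probe set above the filter, all probe sets agreed in direction for 14. The main probe sets of 33 of the 47 members end in _a_at, _s_at or _x_at. Those in _a_at can detect several transcripts of the same gene, and those in _s_at or _x_at can also detect related sequences. For members read from _s_at or _x_at probe sets, processed copies may therefore share signal, which was not tested. The neutrophil markers were also highest on necdin null replicate 2 (7 of 9 genes), and their part in these values was not tested.

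Other genes of the pathway were followed as lists, and 0 genes passed the threshold in any of them with limma. The 8 further chain subunits that were measured were all above 0, with a median of 0.13 that was 0.05 after quantile normalization. Cycs, the gene of cytochrome c, had 22856 and 30264 in null cells against 20845 and 23599.7 in wild type ones (0.25, standard error 0.24). Of 16 ATP synthase genes 12 were above 0, with a median of 0.10, which was -0.0091 after quantile normalization. Atp5j, of the stalk, had 8875 and 10134.5 against 8440.3 and 7473 (0.26, standard error 0.19), with groups apart. The 38 assembly factors, which build the complexes without being part of them, had 21 genes above 0 and a median of 0.02. After median centring the median was -0.061 with 15 above 0, beside -0.11 and 35.8% above 0 for all genes. Sdhaf2, which attaches the flavin to Sdha, had 792 and 924 against 628 and 668 (0.40, standard error 0.23), while 1 of its 2 probe sets pointed upward.

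Isoforms of the chain that are known mainly from other tissues were dim. Cox4i2, Cox7a1, Cox6a2, Cox6b2 and Cox8c had signals of 25.9 to 384, and Cox7a2l, which despite its name takes part in joining complexes III and IV, had 23996 and 40332 against 27166 and 26921 (0.20, standard error 0.29). The 12 citric acid cycle genes had a median of 0.05 with 9 above 0, which turned to -0.013 with 5 above 0 after quantile normalization and to -0.028 with 4 above 0 after median centring. Dlst, a subunit of the 2-oxoglutarate dehydrogenase complex, had 2700.4 and 2167 against 3025 and 3076 (-0.33, standard error 0.19), with 2 of its 4 probe sets downward. Mitochondrial ribosomal proteins had a median of 0.05 with 48 of 74 above 0, which turned to -0.028 with 30 above 0 after median centring. Over all genes, median centring gave a median of -0.11 with 35.8% above 0. Mrpl50 had 2631 and 2145 against 3674 and 3875 (-0.67, standard error 0.19), with 1 of 2 probe sets downward. Regulators of mitochondrial biogenesis had 8 of 15 above 0 and a median of 0.05, which was -0.05 after quantile normalization. Nrf1, whose site was searched in the promoters, had 331 and 592 against 279.6 and 224 (0.81, standard error 0.37, limma adjusted p = 0.999), with 3 of its 4 probe sets upward. Ppargc1a, a regulator named here after its values were seen, went the other way. It had 109 and 71.2 against 178.4 and 178.2 (-0.98, standard error 0.45, limma adjusted p = 0.999), and its difference was -1.02 after quantile normalization. These signals are low and come from a probe set that ends in _x_at.

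Lists outside the mitochondrion were followed for comparison. Cytosolic ribosomal protein genes, 42 of 78 measured and past the filter, had a median of 0.23 and their highest signal on necdin null replicate 2 for 35, and the median was -0.0027 after quantile normalization. Proteasome subunits (31 genes) had a median of 0.13 and 0.03 after it, and Psma4 had 3783 and 3914 in null cells against 2774 and 1913 in wild type ones (0.74, standard error 0.22). Glycolysis genes (14 measured) had a median of -0.07 and -0.09 after it, with 6 and then 3 above 0, and Pfkm had 1183 and 894 against 1561 and 1125 (-0.36, standard error 0.25). Rpl12 had 68.1 and 51.6 against 104 and 191 (-1.20, standard error 0.52). It was read from 1 probe set above the filter, far dimmer than those of most cytosolic ribosomal protein genes. Whether that probe set reports the main transcript was not tested. No test set the respiratory chain against these lists.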

How the data were processed

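The deposited values are MAS5 signals (intensity values on a linear scale), per the submitters' processing notes, which name no software version. Every array has a trimmed mean (2% off either end) of 500.004, so no further normalization was applied for the values reported first. Of 45101 probe sets, 34958 had 1 gene symbol in the platform annotation, and only these were named. The scale is log2(signal + 3.80), the pseudocount being the 10th percentile of all values, so differences of dim genes are understated. The brightest probe set by mean log2 stood for a gene. Genes below the 40th percentile (5.09) were left out. Genotypes were compared in limma 3.58.1 (R 4.3.3; lmFit and eBayes, trend on, two-sided) with Benjamini-Hochberg adjustment over 12680 genes. With 2 arrays a group, exact permutation allows no p below 0.333, so none is given. The code was tested on simulated data.

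The members and lists were chosen with earlier results of these data known, so no list was tested. Described in full were members with groups apart (up to 4 per direction in each list, 2 for complex II), those of highest and lowest signal in each list, those of smallest p in each direction and those below the filter; in each related list, the gene of smallest p. Of the 52 members, 3 had no probe set with their symbol alone. Coordinates are given only for the promoter stretches, which come from the RefSeq windows of GRCm38.p6. Other gene coordinates are left out, since the deposited data name no genome build.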

Additional observations from a re-analysis of the deposited data

How the results depend on the processing

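No member passed the threshold under any alternative run, and the members' median stayed above 0 in all of them. With the replicate block 3 genes of the whole array passed, against 0 without it. The replicate numbers were not taken as pairing, since the labels do not state a pairing and only 2 pairs would exist. The deviations of the replicates correlated at 0.11 over 12680 genes, though the neutrophil marker sums were higher on both replicate 2 arrays. Quantile normalization, alone or with the replicate block, gave 6 members apart upward, medians of 0.038 for the members, 0.027 for complex I and 0.039 for complex III, and differences of -0.030 for Ndufa1, 0.018 for Ndufs5 and -0.044 for Cox5a; alone it gave -0.013 for the citric acid cycle and -0.047 for biogenesis regulators. Median centring gave 2 members apart upward (7.42% of all genes), and medians of -0.061 for assembly factors, -0.028 for the citric acid cycle, -0.028 for mitochondrial ribosomal proteins, -0.028 for biogenesis regulators and -0.15 for glycolysis. Cyclic loess gave -0.020 for biogenesis regulators and 0.039 for Ndufs5. Without _s_at, _x_at and _a_at probe sets the values were 0.024 for complex I, -0.16 for Ndufs8, 0.27 for Uqcrq, 0.23 for Cox8a and 0.079 for Cox6c. The mean over probe sets gave 0.055 for complex II and -0.0019 for Sdha. Median centring subtracts a constant from each array, so it shifted the difference of every gene by the same amount. The median over all genes was -0.11 with it and -0.031 as deposited. The cause of the other changes was not tested.

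Leaving out 1 array at a time gave 0 to 4 genes called, 15 to 29 members apart upward (27.7% to 30.3% of all genes) and 5 to 12 downward (32.1% to 38.4% of all genes), where a lone array makes separation easier and is assumed to vary like the other group. The members' median ranged from 0.042 to 0.21, lowest without necdin null replicate 2. Medians ranged from 0.049 to 0.15 for complex I, 0.055 to 0.25 for complex II, 0.042 to 0.34 for complex III, -0.076 to 0.37 for complex IV, -0.050 to 0.27 for further chain subunits, -0.045 to 0.40 for tissue isoforms of chain subunits, -0.018 to 0.056 for chain assembly factors, -0.0066 to 0.26 for ATP synthase subunits, -0.019 to 0.14 for citric acid cycle, -0.019 to 0.094 for mitochondrial ribosomal proteins, -0.12 to 0.045 for mitochondrial biogenesis regulators, -0.081 to 0.031 for glycolysis, -0.094 to 0.58 for cytosolic ribosomal proteins and 0.0088 to 0.21 for proteasome subunits. Single genes that turned direction ranged from -0.037 to 0.54 for Ndufs8, -0.041 to 0.34 for Ndufa1, -0.29 to 0.24 for Ndufs5, -0.0014 to 0.52 for Sdhc and -0.11 to 0.48 for Cox5a, turning without necdin null replicate 2 except for Sdhc, which turned without wild type replicate 2, and Ndufs5, which turned without either. Precision is limited by 2 arrays a group, and the probe sets with the symbol of Ndufb4 or of Cox7c alone were too dim to compare.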

Other observations

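Some members were read only from probe sets that also carry the symbol of a related copy, and these belong to no comparison. For Ndufs6, an accessory subunit of complex I, such a probe set read 5222 and 4379 in null cells against 4842 and 4268 in wild type ones. For Ndufa11 a probe set shared with its copy read 1373 and 811 against 613 and 1565, with a high and a low array in each genotype. For Ndufb4, whose own probe set was too dim, a shared probe set read 5747 and 5669.6 against 5266 and 4938.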
